A study of Mus musculus with 8 samples.

Results

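The 10 genes described here encode enzymes of ethanol and acetaldehyde metabolism and their close relatives: the alcohol dehydrogenases Adh1, Adh4, Adh5 and Adh7, the cytochrome P450 Cyp2e1, and the aldehyde dehydrogenases Aldh2, Aldh1a1, Aldh1b1, Aldh3a2 and Aldh9a1. They were chosen by function, matched by gene symbol, and make up 10 of the 55335 genes in the count table. All 10 passed the filter on low counts, which left 15234 genes for testing. They were measured by poly(A) RNA sequencing of whole liver from 8 female mice. Every mouse had been through the NIAAA chronic-plus-binge model, in which feeding of an ethanol diet ends with a dose of ethanol by gavage. Mice 28, 34, 37 and 39 are labelled Ripk1-hepKO, with the kinase and scaffold protein RIPK1 deleted in hepatocytes, and mice 29, 32, 40 and 41 are labelled Ripk1-Con. The labels call the mice independent animals, and the study's title asks how hepatocyte RIPK1 bears on liver injury from alcohol. Not given in the sources used here are the age of the mice, the driver of the deletion, the alleles of the controls and the length of feeding. Livers without ethanol were not analysed here, so no value below measures an effect of ethanol.

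Totals ran from 28038390 to 67328158 counts per library. The library of Ripk1-hepKO mouse 28 stood apart, with a mean Spearman correlation to the other libraries of 0.954 against 0.974 to 0.980 for the rest, so log2 fold changes that moved by over 1.5 times or turned sign without it are given both ways. Ripk1 itself did not separate the labels, at 23.1 to 38.1 CPM (counts set to a shared library size with TMM factors) in Ripk1-hepKO against 27.8 to 53.6 in Ripk1-Con; the log2 fold change was -0.21 (adjusted p = 0.866 in edgeR), or 0.02 without mouse 32. These counts cover the whole gene in all cells of the liver, so they cannot show whether RIPK1 was deleted in hepatocytes. The groups are therefore called by their labels throughout, and each direction is one between labels. All 10 hepatocyte markers were detected, and their summed level was 101348 to 131349 CPM in Ripk1-hepKO against 114098 to 148865 in Ripk1-Con. In bulk liver, fewer hepatocytes and less RNA per hepatocyte cannot be told apart.

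Alcohol dehydrogenases of the cytosol turn ethanol into acetaldehyde, and CYP2E1, a cytochrome P450 of the endoplasmic reticulum, does the same at the cost of NADPH and with release of reactive oxygen. Aldehyde dehydrogenases of the mitochondria and cytosol turn acetaldehyde into acetate, and ALDH2 of the mitochondrial matrix carries most of that step in liver. Most of these enzymes belong to hepatocytes, and Cyp2e1 is known as a gene of the hepatocytes around the central vein.

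Start-site windows of 4 members are shown because their transcripts behaved differently across the 8 mice. Cyp2e1 and Adh4 varied together. Adh1, abundant as was Cyp2e1 but not Adh4, did not follow them, and Adh5 hardly varied. Each window runs from 250 bases before to 50 after a gene start in RefSeq (GRCm38.p6, plus strand). Capitals mark matches on either strand to TATAAA or to CCAAT, whose reverse complement reads ATTGG. The positions are chr7:140763569-140763868 for Cyp2e1, chr3:138415247-138415546 for Adh4, chr3:138277335-138277634 for Adh1 and chr3:138442843-138443142 for Adh5.
Cyp2e1: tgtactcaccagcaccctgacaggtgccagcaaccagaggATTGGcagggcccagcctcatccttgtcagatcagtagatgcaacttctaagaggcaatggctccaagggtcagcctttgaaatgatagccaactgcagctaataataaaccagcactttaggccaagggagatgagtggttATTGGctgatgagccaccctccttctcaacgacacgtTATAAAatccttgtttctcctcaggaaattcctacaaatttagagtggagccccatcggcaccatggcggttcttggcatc
Adh4: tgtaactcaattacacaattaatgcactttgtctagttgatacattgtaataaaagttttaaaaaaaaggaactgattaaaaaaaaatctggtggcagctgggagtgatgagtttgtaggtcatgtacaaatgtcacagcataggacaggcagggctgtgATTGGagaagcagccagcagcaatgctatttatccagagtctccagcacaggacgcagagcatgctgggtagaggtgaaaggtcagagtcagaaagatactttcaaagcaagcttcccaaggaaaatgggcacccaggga
Adh1: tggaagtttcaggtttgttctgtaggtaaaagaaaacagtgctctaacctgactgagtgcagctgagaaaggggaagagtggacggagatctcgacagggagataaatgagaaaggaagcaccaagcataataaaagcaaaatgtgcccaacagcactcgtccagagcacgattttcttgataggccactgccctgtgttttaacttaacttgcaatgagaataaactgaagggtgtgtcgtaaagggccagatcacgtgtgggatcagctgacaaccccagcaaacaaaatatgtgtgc
Adh5: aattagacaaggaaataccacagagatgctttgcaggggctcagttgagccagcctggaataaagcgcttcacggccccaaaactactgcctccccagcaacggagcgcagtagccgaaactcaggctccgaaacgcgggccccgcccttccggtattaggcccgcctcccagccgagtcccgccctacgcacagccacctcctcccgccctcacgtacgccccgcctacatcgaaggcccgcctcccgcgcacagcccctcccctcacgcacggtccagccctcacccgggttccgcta

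The Cyp2e1 window held TATAAA on the plus strand at -31, counted in bases from the gene start, and CCAAT on the minus strand at -210 and -68. The Adh4 window held CCAAT on the minus strand at -90, and those printed for Adh1 and Adh5 held neither motif. Among all 32851 RefSeq windows of this length, 13.6% held TATAAA and 37.4% held CCAAT, so a match to CCAAT is common. The Adh5 window had 26 CG dinucleotides and a GC content of 65.0%, against 4, 1 and 6 CG dinucleotides for Cyp2e1, Adh4 and Adh1 and a median of 7 over all windows. RefSeq gave windows for 9 of the 10 members; Adh5 and Aldh1a1 had more than 1, and the gene start of the Adh5 window shown is that of GENCODE. The Adh1 window is set on a RefSeq start at 138277585, inside the GENCODE gene, which begins at 138260991. No window at that GENCODE start was examined. The RefSeq starts of Cyp2e1 (140763819) and Adh4 (138415497) also lie inside their GENCODE genes, which begin at 140763739 and 138415466. Motif positions are counted from the RefSeq starts. The other Adh5 window (chr3:138436950-138437249) held TATAAA on the plus strand at -207, with 3 CG dinucleotides and a GC content of 47.0%, so its content differs from that of the window shown. The matches describe letters in these windows and do not show that a factor binds there.

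Per base of transcript, Cyp2e1 and Adh1 were the most abundant members and Adh7 the least. Levels between genes were compared as CPM per kilobase of the union of a gene's exons (GENCODE M21), averaged over all 8 mice. On that scale Cyp2e1 stood at 1670.0 ± 425 (SD, n = 8), which placed it 39th among the 13056 protein-coding genes tested. Adh1 followed at 958 ± 233, the 49th. Both therefore lay among the most abundant transcripts of these livers.

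The mitochondrial Aldh2 was at rank 3 of the members, with 310.2 ± 16.9 CPM per kilobase (143rd of all coding genes). Next stood the cytosolic Aldh1a1 at 148 ± 29.3 and the microsomal Aldh3a2 at 62.4 ± 15.2, then the cytosolic Aldh9a1 at 52.1 ± 4.61 and Adh5 at 42.9 ± 2.84. The lowest levels per kilobase were those of Aldh1b1 at 20.4 ± 1.21, Adh4 at 13.4 ± 3.63 and Adh7 at 1.55 ± 0.775, the last of which was 8203rd of all coding genes. Together the members took 0.733% to 0.992% of all counts in a library.

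Of the 9 pairs of neighbours in this order, 8 passed an exact two-sided sign-flip permutation test of the log2 difference over 8 mice, adjusted over the 9 pairs. The order was taken from the same values. The p values therefore describe how steady each difference was from mouse to mouse and give no independent support for the order. Cyp2e1 exceeded Adh1 by a mean log2 difference in level per kilobase of 0.79 (SD 0.59) and in 7 of 8 mice (exact adjusted p = 0.0264). The exception was mouse 28, in which Adh1 stood at 1513 and Cyp2e1 at 1127 CPM per kilobase. This difference no longer passed without mouse 29, 32, 37, 40 or 41, at mean log2 differences of 0.71 to 0.77 (exact adjusted p = 0.0527 each), or with the longest coding transcript as the length (0.44, exact adjusted p = 0.0703). With a mouse left out the test has fewer sign flips and coarser p values, while the mean difference itself changed little. Adh1 exceeded Aldh2 by 1.60 and Aldh2 exceeded Aldh1a1 by 1.09, both in 8 of 8 mice (exact adjusted p = 0.0117, the smallest reached over these pairs). Aldh1a1 over Aldh3a2 gave 1.26, Adh5 over Aldh1b1 1.07 and Adh4 over Adh7 3.21, with the same count of mice and the same exact adjusted p of 0.0117. Aldh1b1 exceeded Adh4 by 0.65 in 7 of 8 mice (exact adjusted p = 0.0201), with Ripk1-Con mouse 29 as the exception. With exon unions as the length, Aldh3a2 and Aldh9a1 were not separated, at a log2 difference of 0.22 in 6 of 8 mice (exact adjusted p = 0.0781). That pair passed without mouse 34 (0.30, exact adjusted p = 0.0352).

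The place of Adh5 depended on the length assigned to it. The union of its exons spans 5408 bases and its single coding transcript 1604, and with the second length it stood at 145 CPM per kilobase, at rank 5 and above Aldh3a2 and Aldh9a1. Aldh9a1 over Adh5, at 0.28 in 8 of 8 mice with exon unions (exact adjusted p = 0.0117), was then -1.22. With the longest coding transcript 7 of 10 members kept their rank. With the median length of the coding transcripts, which for Aldh2 is 802 bases against 3867 for its longest, Aldh2 rose above Adh1 (log2 difference of Adh1 over Aldh2 -0.50) and 5 of 10 kept their rank. Cyp2e1 stayed first and Aldh1a1, Aldh1b1, Adh4 and Adh7 stayed at ranks 4, 8, 9 and 10 under all 3 lengths.

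**Figure D1:**
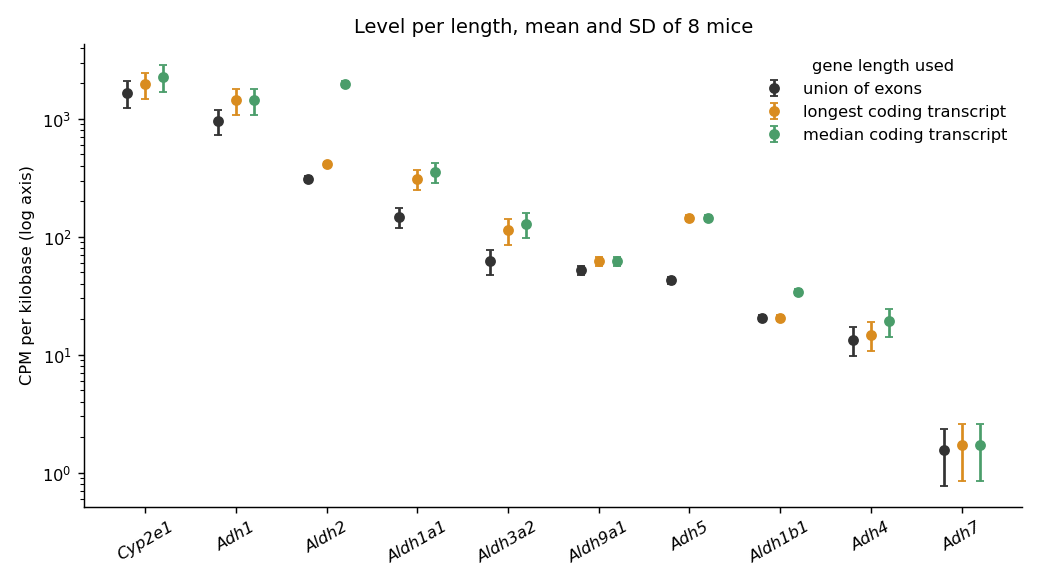
Level per length of the 10 enzymes (x axis) as CPM per kilobase on a log axis (y axis); points are means and bars SDs of 8 mice, and colours give the gene length used. Cyp2e1 lies highest and Adh7 lowest under each length, while Adh5 and Aldh2 move with it.

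Among the 4 alcohol dehydrogenases of this set Adh1 made up most of the summed level, and among its 5 aldehyde dehydrogenases Aldh2 had the largest share. The sums hold these members alone and are not shares of the whole gene families. Left out, for example, is Aldh1l1, whose mean CPM was above that of Aldh1a1 under both labels. Adh1 supplied 94.1% ± 1.27 (SD, n = 8) of the summed level per kilobase of the 4 alcohol dehydrogenases, Adh5 4.40%, Adh4 1.382% and Adh7 0.148%. With the longest coding transcript as length, the Adh1 share was 89.5% and that of Adh5 9.42%. Aldh2 supplied 52.6% ± 3.74 of the 5 aldehyde dehydrogenases and Aldh1a1 24.7% ± 3.06, or 45.2% and 33.5% with the longest transcript. Cyp2e1 alone supplied 50.4% ± 7.90 of the sum over all 10 members. Its share was lowest in mouse 28, at 35.0%, where Adh1 took 47.1% against 29.6% on average.

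No member differed between the genotypes at an FDR threshold of 0.05. In edgeR's quasi-likelihood test 0 of 10 members passed, with adjusted p from 0.750 to 0.985, against 0% of the 15234 genes tested. None had an unadjusted p under 0.05, which 6.68% of all genes had; the count was 3 of 10 without mouse 37, 2 without mice 28 and 40 or with voom and sample quality weights, and 1 without mouse 28, 39 or 40. By the DESeq2 Wald test 0 of 10 passed (lowest adjusted p among them 0.646), against 0.237% of 15173 genes with an adjusted p. A fold change below 0, lower in Ripk1-hepKO, was found for 9 of 10 members and for 48.2% of all genes, though 3 of the 9 (Adh7, Aldh1a1 and Aldh1b1) turned sign when single mice were left out. The median log2 fold change was -0.07 for the members and 0.01 for all genes, and for the members it was -0.12 without mouse 28 or 41 and -0.14 without mouse 37. Of the 10 hepatocyte markers 7 were also below 0, with a median of -0.16, 2 were lower at an unadjusted p under 0.05, and 2 had groups that did not overlap; their part in the values of the enzymes was not tested. The groups did not overlap for 1 of 10 members, Aldh9a1, and for 4.10% of all genes. With 4 mice a group, the intervals given below show how large a difference each gene could still have.

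**Figure D2:**
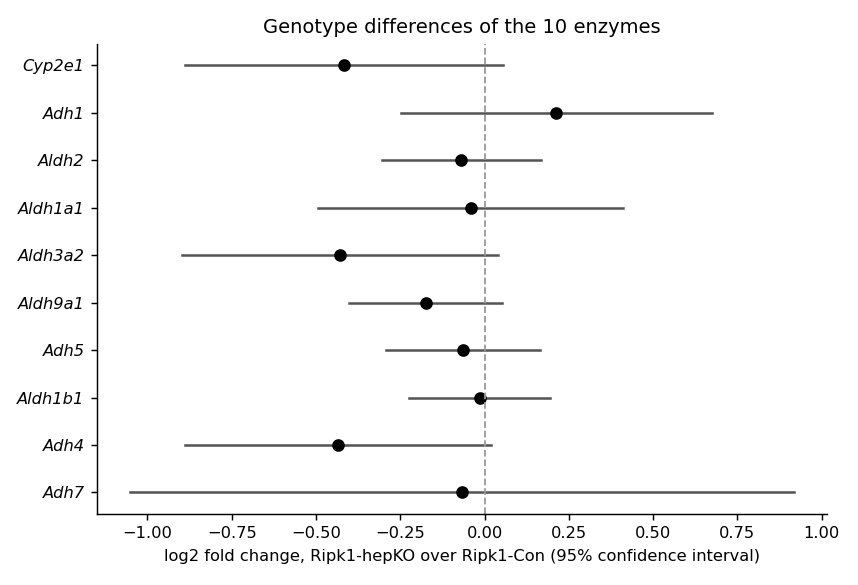
Log2 fold change of each enzyme, Ripk1-hepKO over Ripk1-Con (x axis), with its 95% confidence interval from edgeR's quasi-likelihood fit of 4 against 4 mice; the dashed line marks 0. All 10 intervals include 0, the narrowest for Aldh1b1 and the widest for Adh7.

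Adh1 (ENSMUSG00000074207, GRCm38 chromosome 3, 138260991 to 138290698, plus strand), the class I enzyme and main ethanol dehydrogenase of the hepatocyte cytosol, stood at 3379, 1862, 1814 and 2127 CPM in mice labelled Ripk1-hepKO (28, 34, 37 and 39) and at 2061, 2138, 1963 and 1762 CPM in those labelled Ripk1-Con (29, 32, 40 and 41). Mouse 28 was far above the remaining 7, which overlapped between 1762 and 2138. The means, 2296 ± 735 and 1981 ± 163 CPM (SD, n = 4 each), gave a log2 fold change of 0.21 (SE 0.20; adjusted p = 0.847 in edgeR). Its 95% confidence interval reached from 84.2% to 159.6% of the control level. Without mouse 28 the log2 fold change was -0.03. The annotation places the antisense gene Gm16559 across 136 exonic bases of Adh1, and it had 0 counts in every library. Of the 50-base windows of the longest Adh1 transcript, 3.26% recur in Gm16559 or the pseudogene Adh6-ps1, so a small part of its reads could be assigned otherwise.

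Adh4 (ENSMUSG00000037797, chromosome 3, 138415466 to 138430892, plus strand), the class II alcohol dehydrogenase, had 13.8, 16.5, 21.3 and 14.7 CPM in mice labelled Ripk1-hepKO (28, 34, 37 and 39) and 29.6, 23.5, 16.6 and 19.8 CPM in those labelled Ripk1-Con (29, 32, 40 and 41). Mouse 37 lay among the controls and mouse 40 next to the lower Ripk1-hepKO mice, so the groups overlapped. Its log2 fold change was -0.43 (SE 0.20; adjusted p = 0.750 in edgeR, the lowest of the 10), from 16.6 ± 3.32 against 22.4 ± 5.59 CPM. Its interval reached from 54.0% to 101% of the control level, and without mouse 29, the highest control, the value was -0.27.

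Adh5 (ENSMUSG00000028138, chromosome 3, 138443093 to 138455499, plus strand), the class III enzyme, oxidises formaldehyde bound to glutathione and has little activity on ethanol. Its levels were 202, 230.3, 247 and 229 CPM in mice labelled Ripk1-hepKO (28, 34, 37 and 39) and 253, 227, 230.4 and 239 CPM in those labelled Ripk1-Con (29, 32, 40 and 41). The ranges overlapped, with mouse 28 the lowest of all 8. A log2 fold change of -0.06 (SE 0.10; adjusted p = 0.914 in edgeR) had an interval of 81.6% to 112% of the control level. Leaving out mouse 28 gave -0.01, mouse 29 -0.03 and mouse 37 -0.10.

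Adh7 (ENSMUSG00000055301, chromosome 3, 138217760 to 138233382, plus strand), the class IV enzyme known from stomach and active on retinol as well as ethanol, was near the low end of expression, with 131 to 658 counts per library. It stood at 12.1, 3.65, 4.53 and 2.73 CPM in mice labelled Ripk1-hepKO (28, 34, 37 and 39) and at 6.79, 7.37, 5.51 and 4.42 CPM in those labelled Ripk1-Con (29, 32, 40 and 41). Mouse 28 was the highest of the 8 and mouse 39 the lowest, and both carry the same label. Between groups the log2 fold change was -0.07 (SE 0.44; adjusted p = 0.985 in edgeR), with an interval of 48.3% to 189%; it was -0.73 without mouse 28 and above 0 without mouse 32, 34, 37 or 39 (0.05, 0.10, 0.04 and 0.17). An antisense gene, 0610031O16Rik, overlaps 108 exonic bases of Adh7 and had 8693 counts over the 8 libraries against 2180 for Adh7. It stood lowest in mouse 28, at 6.98 CPM against 17.6 to 37.1 in the other 7, where Adh7 was highest. The strand setting of the counting was not given in the sources used here, so the split of reads between these genes is uncertain. Of 9 gastric epithelium markers, 7 (Gif, Gkn1, Gkn2, Muc6, Pgc, Tff1 and Tff2) had 0 counts in all libraries, and their summed level was 0 to 0.257 CPM in Ripk1-hepKO and 0 to 0.0664 in Ripk1-Con.

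Cyp2e1 (ENSMUSG00000025479, chromosome 7, 140763739 to 140774987, plus strand) stood at 2431, 2805, 4412 and 2697 CPM in mice labelled Ripk1-hepKO (28, 34, 37 and 39) and at 4768, 4619.6, 3546 and 3553 CPM in those labelled Ripk1-Con (29, 32, 40 and 41). Of the Ripk1-hepKO mice, 28, 34 and 39 lay below all controls and mouse 37 lay among them. The means of 3086 ± 897 and 4122 ± 663 CPM (SD, n = 4 each) gave a log2 fold change of -0.42 (SE 0.21; adjusted p = 0.762 in edgeR) and an interval of 54.0% to 104% of the control level. Without mouse 28, the lowest of the 8, it was -0.32 (adjusted p = 0.945 in edgeR), and without mouse 37 it was -0.64 (adjusted p = 0.513 in edgeR). Of the 50-base windows of its longest transcript, 4.82% recur in other genes, 211 in all. The values are of RNA, while the protein is known to be stabilised by ethanol.

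Aldh2 (ENSMUSG00000029455, chromosome 5, 121566027 to 121593824, minus strand), the mitochondrial enzyme with the highest affinity for acetaldehyde, had 1513, 1523, 1597 and 1573 CPM in mice labelled Ripk1-hepKO (28, 34, 37 and 39) and 1552, 1721, 1516 and 1723 CPM in those labelled Ripk1-Con (29, 32, 40 and 41). The 8 values lay within a narrow range and overlapped, with mice 32 and 41 the highest. The log2 fold change of -0.07 (SE 0.10; adjusted p = 0.908 in edgeR) came from 1552 ± 39.9 against 1628 ± 109.6 CPM. The interval, 80.9% to 112% of the control level, leaves room only for modest differences. Mouse 28 did not stand apart here.

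Aldh1b1 (ENSMUSG00000035561, chromosome 4, 45799022 to 45804604, plus strand), the other mitochondrial acetaldehyde dehydrogenase of the set, varied as little, with 41.9, 47.1, 49.2 and 48.7 CPM in mice labelled Ripk1-hepKO (28, 34, 37 and 39) and 43.9, 46.5, 48.9 and 49.6 CPM in those labelled Ripk1-Con (29, 32, 40 and 41). Each group spanned nearly the same range. Their log2 fold change was -0.02 (SE 0.09; adjusted p = 0.983 in edgeR), with an interval of 85.6% to 114%, and was 0.03 without mouse 28 and 0.01 without mouse 40 or 41.

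Aldh1a1 (ENSMUSG00000053279, chromosome 19, 20492715 to 20643465, plus strand), a cytosolic enzyme that oxidises retinal to retinoic acid beside acetaldehyde, varied more. Its levels were 559, 538, 931 and 849.8 CPM in mice labelled Ripk1-hepKO (28, 34, 37 and 39) and 825, 688, 638 and 809 CPM in those labelled Ripk1-Con (29, 32, 40 and 41). The Ripk1-hepKO mice held both the lowest and the highest values of the 8. The log2 fold change was -0.04 (SE 0.20; adjusted p = 0.977 in edgeR), with an interval of 71.0% to 133%, and it was above 0 without mouse 28, 29, 34 or 41 (0.06, 0.02, 0.08 and 0.005). Its transcript shares 6.54% of its 50-base windows with the neighbouring paralog Aldh1a7, which stood at 115 ± 23.5 against 106 ± 18.5 CPM (log2 fold change 0.12, adjusted p = 0.906 in edgeR; 0.22 without mouse 28, and 0.02 to 0.24 over single mice left out).

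Aldh3a2 (ENSMUSG00000010025, chromosome 11, 61223417 to 61267464, minus strand), the fatty aldehyde dehydrogenase of microsomal membranes, stood at 273, 193, 371 and 358 CPM in mice labelled Ripk1-hepKO (28, 34, 37 and 39) and at 466, 428, 343 and 375 CPM in those labelled Ripk1-Con (29, 32, 40 and 41). Mice 28 and 34 were the lowest of the 8, and mice 37 and 39 lay beside controls 40 and 41. The log2 fold change was -0.43 (SE 0.21; adjusted p = 0.759 in edgeR), from 299 ± 83.0 against 403 ± 54.8 CPM, with an interval of 53.6% to 103%. Without mouse 34 it was -0.26.

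Aldh9a1 (ENSMUSG00000026687, chromosome 1, 167349991 to 167368532, plus strand), which acts in carnitine synthesis on trimethylaminobutyraldehyde, was the member whose groups did not overlap. It had 169.7, 145, 175 and 173 CPM in mice labelled Ripk1-hepKO (28, 34, 37 and 39) and 198, 188, 180.4 and 182 CPM in those labelled Ripk1-Con (29, 32, 40 and 41). The nearest mice of the groups, 37 and 40, lay at 175 and 180.4 CPM. The log2 fold change was -0.17 (SE 0.10; adjusted p = 0.770 in edgeR), the interval 75.7% to 104% of the control level, and the value without mouse 34 was -0.11.

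**Figure D3:**
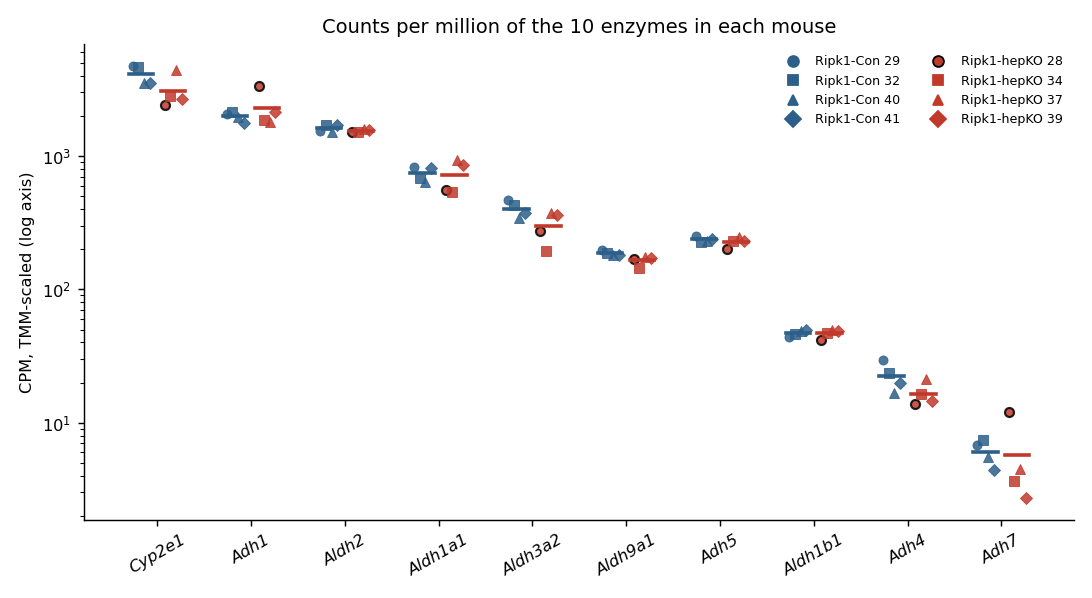
CPM of the 10 enzymes in each mouse on a log axis, Ripk1-Con in blue on the left and Ripk1-hepKO in red on the right of each gene, with bars at the group means; mouse 28 has a black rim. Only Aldh9a1 has groups that do not overlap, and mouse 28 is the highest point for Adh1 and Adh7.

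With all mice entered, 4 members were among the steadier transcripts of these livers. The SD of log2 CPM within genotypes was 0.07 for Aldh2, 0.09 for Aldh1b1, 0.10 for Adh5 and 0.10 for Aldh9a1. Of all 15234 genes tested, 1.18%, 3.28%, 3.89% and 4.29% had a smaller SD. Among the 7460 genes with a mean of at least 10 CPM these shares were 2.23%, 6.27%, 7.36% and 8.11%. The median SD was 0.30 over all genes and 0.21 over those 7460. Adh1, Aldh1a1, Cyp2e1, Adh4 and Aldh3a2 had SDs of 0.31, 0.31, 0.32, 0.32 and 0.34, near the median of all genes but above 73.1%, 74.4%, 74.5%, 74.9% and 78.3% of the genes with a mean of at least 10 CPM. The SD of Adh1 rested on mouse 28: without it the SD was 0.12, above 14.5% of all genes, while Aldh1a1, Cyp2e1, Adh4 and Aldh3a2 stood at 0.30, 0.31, 0.33 and 0.37. Those 4 then lay above 59.0%, 60.0%, 62.7% and 68.6% of all genes, whose median SD without mouse 28 was 0.25. Without it, Aldh2, Aldh1b1, Adh5 and Aldh9a1 stood at 0.08, 0.07, 0.07 and 0.11. Their SDs were above 3.50%, 1.65%, 1.82% and 10.5% of all genes. Among genes with a mean of at least 10 CPM these shares were 6.69%, 3.18%, 3.50% and 19.5%. Adh7 had the widest spread, at 0.69, above 86.9% of all genes, and at 0.34, above 65.1%, without mouse 28.

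**Figure D4:**
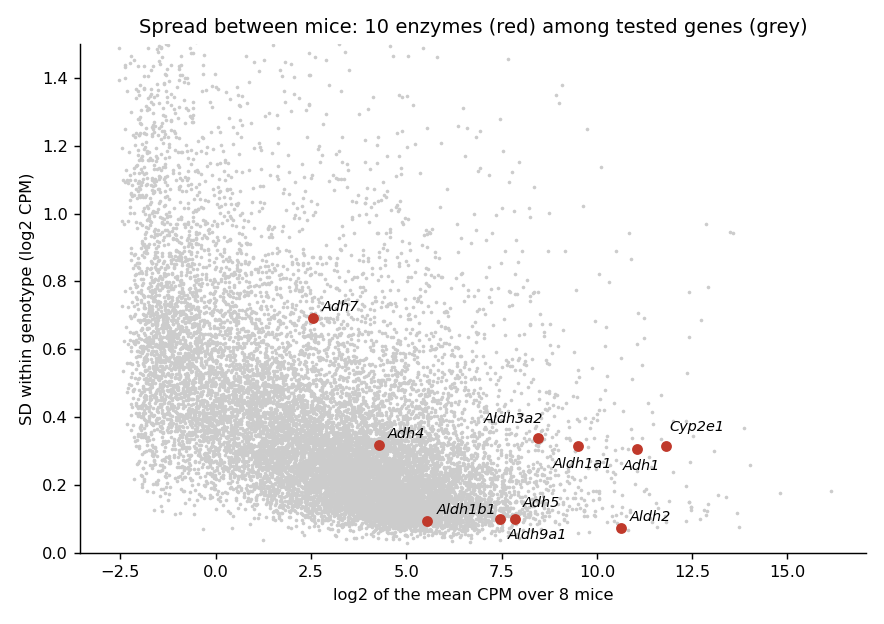
SD of log2 CPM within genotype (y axis) against log2 of the mean CPM over 8 mice (x axis) for the tested genes in grey and the 10 enzymes in red; 206 genes with an SD above 1.5 lie beyond the axis. Aldh2, Aldh1b1, Adh5 and Aldh9a1 sit at the lower edge of the cloud and Adh7 high above them.

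Ratios between members within a library do not depend on how libraries are scaled. The log2 ratio of Cyp2e1 to Adh1 counts was -0.47, 0.59, 1.28 and 0.34 in mice labelled Ripk1-hepKO (28, 34, 37 and 39) and 1.21, 1.11, 0.85 and 1.01 in those labelled Ripk1-Con (29, 32, 40 and 41). Mouse 28 alone had more Adh1 than Cyp2e1 counts, and mouse 37 had the highest ratio of all. The group difference, Ripk1-hepKO minus Ripk1-Con, was -0.61 (exact two-sided permutation p = 0.171, adjusted over 4 ratios 0.610), where 4 against 4 mice allow no p below 0.0286. Without mouse 28 the difference was -0.31. Aldh2 to Adh1 differed by -0.24 (exact permutation adjusted p = 0.610) and by -0.02 without mouse 28. Aldh1b1 to Aldh2, the pair of mitochondrial enzymes, differed by 0.05 (exact permutation adjusted p = 0.610), and Aldh1a1 to Aldh2, cytosol over mitochondrion, by -0.01 (exact permutation p = 1.0). Without mouse 28 these values were both 0.09. No ratio passed, and none was shown to be equal.

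Across the 8 mice, Cyp2e1 and Adh4 rose and fell in the same order. Over the 45 pairs of members, 2 passed an exact permutation test of Pearson's r of log2 CPM after adjustment and 1 passed that of Spearman's rho. Cyp2e1 with Adh4 gave r = 0.93 (exact permutation p = 6.20e-04, adjusted 0.0140) and rho = 1 (p = 4.96e-05, adjusted 0.00223), the smallest p that 8 mice allow. Aldh3a2 with Aldh9a1 gave r = 0.96 (exact permutation p = 3.22e-04, adjusted 0.0140) and rho = 0.93 (adjusted 0.0502). Without the 2 mice farthest from the median of the first gene, r was 0.92 for Adh4 with Cyp2e1 (exact permutation adjusted p = 0.188) and 0.88 for Aldh3a2 with Aldh9a1 (exact permutation adjusted p = 0.225). With 6 mice no pair passed, but so few mice allow few permutations, and a single pair could hardly pass after adjustment over 45. The lost calls therefore do not show weaker correlations.

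The abundant pair, Cyp2e1 and Adh1, did not move together: r was -0.50 (exact permutation adjusted p = 0.479) and 0.07 without mice 28 and 41. The most negative r was that of Adh1 with Adh5, -0.82 (exact permutation adjusted p = 0.161), and it was -0.28 without the same mice, so it rested on them. Adh1 with Adh7 gave 0.72 (exact permutation adjusted p = 0.180) and 0.20 without them. In all, r was above 0 for 31 of the 45 pairs. The mice come from both groups, so r was also taken with each gene centred within its group and permuted within groups, which gives 576 arrangements and no p below 0.00174. Cyp2e1 with Adh4 then gave r = 0.88 and Aldh3a2 with Aldh9a1 0.95, each at that smallest p (exact permutation adjusted p = 0.0391), and these 2 of the 45 pairs passed. As a description, over the 4 mice of each group taken alone, Cyp2e1 with Adh4 gave an r of 0.98 (Ripk1-hepKO) or 0.91 (Ripk1-Con).

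**Figure D5:**
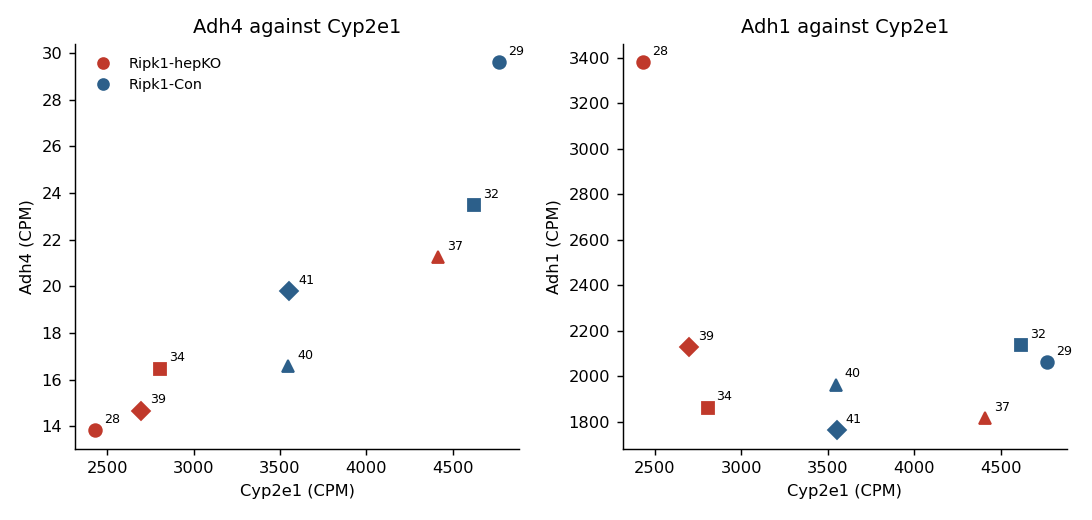
Adh4 (left) and Adh1 (right) against Cyp2e1, in CPM, 1 point per mouse with its number, red for Ripk1-hepKO and blue for Ripk1-Con. Adh4 rises with Cyp2e1 from mouse 28 to mouse 29, while Adh1 lies between 1762 and 2138 CPM in 7 mice and at 3379 in mouse 28.

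Among the 13055 other coding genes tested, those whose log2 CPM followed Cyp2e1 most closely were Pcyt2 (Pearson r = 0.98), which makes CDP-ethanolamine for phospholipids, Ttc38 (0.98), Apoe (0.97), an apolipoprotein, Mesd (0.97) and Ccnl2 (0.96). Those nearest to Adh1 were Dusp5 (0.98), a phosphatase of MAP kinases, Papss2 (0.98), which makes the sulfate donor PAPS, Hnrnpdl (0.98), Tex30 (0.97) and Tmem185b (0.97). For Aldh2 they were Erap1 (0.95), an aminopeptidase that trims antigenic peptides, Zdhhc17 (0.94), Vps13d (0.94), Psme4 (0.93) and Rnf19b (0.93). These values describe 8 libraries and were picked as the highest of many. Without mouse 28 the r of these genes was 0.95 to 0.98 with Cyp2e1, 0.79 to 0.95 with Adh1 and 0.93 to 0.99 with Aldh2.

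Of the remaining alcohol and aldehyde dehydrogenases, 15 of 19 listed genes were tested and 0 passed in either direction (edgeR), with 7 above and 8 below 0 and a median log2 fold change of -0.01 (-0.02 to 0.07 with single mice left out). Aldh18a1, of proline synthesis, stood at 5.57 ± 2.60 CPM in Ripk1-hepKO against 2.54 ± 1.18 in Ripk1-Con, and Aldh3b1 at 4.21 ± 0.977 against 3.14 ± 0.648. Lower values in Ripk1-hepKO were those of Aldh6a1, of valine breakdown, at 301 ± 36.9 against 367 ± 31.7 CPM, and Aldh8a1 at 231 ± 47.6 against 268 ± 22.0, where the log2 fold change of -0.21 was -0.07 without mouse 28. At an unadjusted p under 0.05, 1 gene was higher and 1 lower. Of all 15234 genes tested, 6.68% had such a p, 588 of them higher and 429 lower. That share is also the one to set beside the counts of the lists that follow. The DESeq2 Wald test also called 0 genes of this and of the lists that follow.

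Other routes of ethanol and the use of acetate also held no gene past the threshold (0 of 16, edgeR; 8 above and 8 below 0; median -0.03, or -0.06 to 0.02 with single mice left out; 2 higher at an unadjusted p under 0.05). Acss2, which turns acetate into acetyl-CoA, had 64.1 ± 14.5 CPM in Ripk1-hepKO against 48.9 ± 5.61 in Ripk1-Con. Por, the reductase that supplies electrons to CYP2E1 and other P450 enzymes, had 682 ± 148 against 523 ± 53.0, in the direction opposite to Cyp2e1. Acot12, an acetyl-CoA hydrolase, had 97.3 ± 21.04 against 119 ± 6.48 CPM, and Ugt1a1, a glucuronosyltransferase, 779 ± 78.6 against 911 ± 82.7. The log2 fold change of Acss2 went from 0.39 to 0.24 without mouse 37, and that of Acot12 from -0.29 to -0.18 without mouse 34. Whether Por and Cyp2e1 differ in their response was not tested.

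Ethanol oxidation yields NADH, which the malate-aspartate and glycerol phosphate shuttles pass to mitochondria. Of 11 shuttle and related genes 0 passed (edgeR; 4 above and 7 below 0; median -0.09, or -0.15 to 0.02 with single mice left out; 1 higher and 1 lower at an unadjusted p under 0.05). Got1, the cytosolic aspartate transaminase, stood at 579, 182, 296 and 104 CPM in mice 28, 34, 37 and 39 and at 98.5 to 149 in the controls, with mouse 28 far above the rest. Its log2 fold change of 1.15 was 0.57 without mouse 28. The aspartate-glutamate carriers went different ways, Slc25a12 at 21.1 ± 3.48 against 17.5 ± 1.23 CPM and Slc25a13 at 97.4 ± 19.9 against 132 ± 17.9. Got2, the mitochondrial transaminase, stood at 450.5 ± 38.9 against 505 ± 6.22 CPM. It was the 1 gene of the 11 with groups that did not overlap, against 4.10% of all genes. Without mouse 28 the log2 fold change of Got2 was -0.11 in place of -0.16, and without mouse 34 that of Slc25a12 was 0.17 in place of 0.27.

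Clearance of lipid aldehydes, a task shared with Aldh3a2, was covered by 9 genes, of which 0 passed (edgeR; 6 above and 3 below 0; median 0.32, or 0.17 to 0.33 with single mice left out and lowest without mouse 28; 1 higher at an unadjusted p under 0.05). Akr1b3, an aldose reductase, stood at 7.32 ± 1.03 against 5.76 ± 0.442 CPM and was the 1 gene of the 9 without overlap of the groups, against 4.10% of all genes. Akr1b8 stood at 4.12 ± 2.92 against 1.98 ± 0.707, a log2 fold change of 1.07 that was 0.61 without mouse 28. Glo1, the glyoxalase that removes methylglyoxal, stood at 137 ± 14.9 against 167 ± 28.5 CPM, and Akr1c6 at 448 ± 94.98 against 451 ± 73.9, a log2 fold change of -0.01 that was 0.07 without mouse 28. With limma voom and sample quality weights the median was 0.08.

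Retinoid handling, in which Aldh1a1, Adh1 and Adh7 take part, had 0 of 15 genes past the threshold (edgeR; 6 above and 9 below 0; median -0.15, or -0.18 to -0.01 with single mice left out). At an unadjusted p under 0.05, 5 were higher and 2 lower, against 6.68% of all genes in either direction. Cyp26a1, which breaks down retinoic acid and is induced by it, stood at 13.5, 11.0, 9.20 and 11.6 CPM in mice labelled Ripk1-hepKO (28, 34, 37 and 39) and at 3.25, 2.39, 5.28 and 8.10 CPM in those labelled Ripk1-Con (29, 32, 40 and 41). All Ripk1-hepKO mice were above all controls, a log2 fold change of 1.25 (SE 0.35; adjusted p = 0.742 in edgeR). Rdh11, a retinal reductase, stood at 20.0 ± 2.69 against 14.9 ± 1.26 CPM. Retsat, a retinol saturase, stood at 319.7 ± 11.8 against 406 ± 69.9 and Dhrs4 at 86.2 ± 9.01 against 105 ± 6.24 CPM. The groups did not overlap for 4 of the 15 genes, Cyp26a1, Rdh11 and Retsat among them, against 4.10% of all genes. The log2 fold change of Retsat, -0.34, was -0.22 without mouse 40. Stellate cells also hold retinoid genes, and their 8 markers were all above 0, against 7886 of all 15234 genes. Their summed level was 256 to 377 CPM in Ripk1-hepKO and 210.04 to 259 in Ripk1-Con. None of the 8 had 0 counts in all libraries, and Lrat is in both lists. The part of these markers in the values of the retinoid genes was not tested.

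Of 12 transcription factors of hepatocytes 0 passed (edgeR; 4 above and 8 below 0; median -0.03, or -0.14 to -0.01 with single mice left out; 2 lower at an unadjusted p under 0.05). Ppara, the fatty acid receptor that has Aldh3a2 among its known targets, stood at 61.1 ± 29.2 CPM in Ripk1-hepKO against 120.04 ± 28.9 in Ripk1-Con. Nfe2l2, which encodes NRF2, had 75.8 ± 10.9 against 66.1 ± 8.13 CPM (log2 fold change 0.20, or 0.09 without mouse 39), and the circadian factor Dbp 8.20 ± 7.03 against 5.39 ± 1.44, with mouse 37 at 18.6 and a turn to -0.18 without it.

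Genes of the zone around the central vein, where Cyp2e1 belongs, were below 0 in 14 of 16 cases, against 48.2% of all genes. Their median was -0.13 (-0.21 to -0.05 with single mice left out), against 0.01 for all genes, and 0 passed (edgeR; 0 at an unadjusted p under 0.05). The hepatocyte markers were also below 0 in 7 of 10 cases, with a median of -0.16. Whether the zone differs from hepatocyte genes at large was not tested. Axin2, a target of Wnt signalling, stood at 10.5 ± 3.72 against 13.8 ± 1.15 CPM and Tbx3 at 31.2 ± 16.9 against 48.3 ± 13.8, while Cyp1a2 stood at 694 ± 213 against 529.5 ± 62.0 and Rhbg at 21.1 ± 3.91 against 18.3 ± 1.94. Without mouse 28 the log2 fold change of Axin2 went from -0.40 to -0.19 and that of Tbx3 from -0.64 to -0.35. Without mouse 37 it was -0.61 for Axin2, 0.25 in place of 0.39 for Cyp1a2 and 0.13 in place of 0.20 for Rhbg, which was also 0.13 without mouse 39. The summed level of the 16 genes of this zone ranged over 4542 to 6001 CPM in Ripk1-hepKO and 4533 to 6437 in Ripk1-Con. Periportal genes were below 0 in 9 of 14 cases with a median of -0.04 (-0.09 to 0.03 with single mice left out), and 0 passed (edgeR; 1 lower at an unadjusted p under 0.05). Sds stood at 138 ± 84.97 against 88.8 ± 17.2 CPM, Arg1 at 1555 ± 412 against 1366 ± 43.6, Hsd17b6 at 98.5 ± 14.4 against 140.02 ± 26.9 and Pigr at 1337 ± 81.7 against 1482 ± 98.5. The higher means of Sds and Arg1 rested on mouse 28: without it the log2 fold change went from 0.63 to 0.15 for Sds and from 0.19 to 0.01 for Arg1.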

How the data were processed

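The authors deposited raw counts, whole numbers for each Ensembl gene, in a single table that covers the 8 liver libraries. Per the labels' protocols, TRIzol-extracted RNA was selected by poly(A), fragmented, copied with dUTP to mark strand, amplified and sequenced from both ends. The submitters' processing notes name the build GRCm38.p6 and, as tools, STAR 2.5.2b, FastQC 0.11.5, DESeq2 1.38.1 and StringTie 2.2.1. Not given in the sources used here are the tool that made the counts, its strand setting and the annotation, and reads of overlapping or near-identical genes are uncertain for that reason. Symbols, positions and lengths came from GENCODE M21, which 55154 of 55335 gene IDs matched. Start-site windows came from RefSeq (GRCm38.p6).

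The test was run in R 4.3.3 with edgeR 4.0.16: filterByExpr, TMM, a robust quasi-likelihood fit of genotype over all 8 mice, and Benjamini-Hochberg adjustment over the 15234 genes kept, at an FDR of 0.05. The common biological coefficient of variation, which describes the spread between mice, was 0.292. CPM values use TMM library sizes, and log2 CPM for correlations has a prior count of 2. Ratios have 0.5 counts added. Neighbours in rank were compared over 256 sign flips, ratios over 70 assignments of 4 against 4 mice, and correlations over 40320 permutations, or 576 within groups. Levels per kilobase use the union of exons. Python 3.11.15, scipy 1.17.1 and pandas 2.3.3 were used. The fit was tested on simulated data first. The labels name no molecular identifiers, so several reads can be copies of 1 molecule.

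Alternatives were for the test, the Wald test of DESeq2 1.42.0, limma 3.58.1 voom (plain or with sample quality weights) and edgeR with the robust option off; for the scaling, the size factors of DESeq2 or the library size; for the genes entered, all of them, those at 1 CPM in 4 libraries, or coding genes; and other gene lengths, TPM, pseudocounts of 0 and 5, each mouse left out, and mice 28 and 40 left out together. Correlations without the 2 farthest mice or centred within groups, and the spread and likeness without mouse 28, were added later. The members, the gene lists and the tests were chosen with earlier results of these data known. The rule for named genes takes all 10 members, up to 2 genes of smallest p in each direction of each wider list, the 5 coding genes of highest Pearson r with Cyp2e1, Adh1 and Aldh2, genes that overlap a member, the closest paralog and Ripk1; some genes of the wider lists are not reported here. Of the cell type marker lists, those of hepatocytes, stellate cells and gastric epithelium are given with the results; the others are given under other observations. Mouse numbers are not shared between groups, so no pairing was used.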

Additional observations from a re-analysis of the deposited data

Results flagged for a closer look

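The log2 ratio of Aldh1b1 to Aldh2 counts was -5.17 in Ripk1-hepKO mouse 28, while the other 3 Ripk1-hepKO mice lay between -5.02 and -5.01. The gap to the nearest of them was 0.953 of the range of the group, above Dixon's 95% critical value for 4 samples. The ratio in mouse 28 was not outside the controls, which stood at -5.14, -5.21, -4.95 and -5.12 in mice 29, 32, 40 and 41. In all, 28 groups of 4 values were examined this way, and chance alone flags about 1 in 20. What sets mouse 28 apart was not tested.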

How the results depend on the processing

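No member and no gene of the wider lists passed the FDR under any of the 18 alternatives of the genotype test. Over all genes, 36 passed with the DESeq2 Wald test against 0 in edgeR, and the number with an unadjusted p under 0.05, 1017 with all mice, ranged from 633 (without mouse 29) to 1409 when single mice were left out. Log2 fold changes near 0 turned sign. With library size alone Aldh1a1 was 0.012, Aldh1b1 0.021 and Akr1c6 0.045; without a filter Akr1c6 was 0.0027; with voom and quality weights Aldh1b1 was 0.016; without mice 28 and 40 Adh1 was -0.039, Aldh1b1 0.050 and the ratio of Aldh1a1 to Aldh2 0.053. With single mice left out the ranges were -0.033 to 0.32 for Adh1, -0.73 to 0.17 for Adh7, -0.18 to 0.081 for Aldh1a1, -0.048 to 0.034 for Aldh1b1, -0.14 to 0.079 for Akr1c6, -0.18 to 0.88 for Dbp, -0.32 to 0.019 for Ripk1 and -0.13 to 0.11 for the ratio of Aldh1a1 to Aldh2. Adh4, Adh5, Cyp2e1, Aldh2, Aldh3a2 and Aldh9a1 kept a value below 0 under all 18 alternatives. The gene length moved ranks: 7 of 10 members kept theirs with the longest and 5 with the median transcript, Aldh9a1 over Adh5 turned to -1.22 with both, and Adh1 over Aldh2 to -0.50 with the median. With 6 mice, r was 0.88 for Aldh3a2 with Aldh9a1 and 0.92 for Adh4 with Cyp2e1. Neither passed, in a test that so few mice make hard to pass. No paired analysis was possible because the groups share no replicate number. Depth limits Adh7 most, at 131 to 658 counts per library.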

Other observations

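Markers of other cell types were summed in each library as a description. Kupffer cell markers stood at 225 to 343 CPM in Ripk1-hepKO and 89.8 to 380.0 in Ripk1-Con, monocyte and macrophage markers at 56.6 to 106 against 24.3 to 94.6, and neutrophil markers at 9.91 to 47.6 against 3.62 to 31.1. Endothelial markers stood at 182 to 290.3 CPM against 137 to 248, and cholangiocyte markers at 15.5 to 62.8 against 13.5 to 34.7. T and NK cell markers stood at 3.30 to 4.62 CPM against 2.39 to 4.22, B cell markers at 6.39 to 30.2 against 4.12 to 19.7, erythroid markers at 189.96 to 516 against 254 to 636, and adipose markers at 361 to 562 against 386 to 531. These ranges overlapped in each list, and their part in the values of the 10 enzymes was not tested. Of the 6 adipose markers, Plin1 had 0 counts in all libraries and 3 passed the filter on low counts.

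The antisense or neighbouring genes that overlap the remaining members had few counts. Gm42879, across 130 exonic bases of Aldh2, had 70 counts over the 8 libraries against 571844 for Aldh2. C730002L08Rik, which overlaps Aldh1a1 in introns alone, had 222 against 261464, and the pseudogene Gm6684 had 0. Mouse 28 was the highest of the 8 for Adh1, Adh7 and Got1 and the lowest for Cyp2e1, Adh4, Adh5, Aldh2 and Aldh1b1.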
